A study of Mus musculus with 10 samples.

Results

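The genes described here are 9 membrane transporters that load, take up or recycle glutamate, GABA and glycine, out of 55414 genes counted in mouse trigeminal ganglia. They were named by function, as transporters of these transmitters or of glutamine in neurons and glia. That choice was made with earlier results of these data known, so counts of called members are a description only. All 9 symbols matched an Ensembl identifier in the files. RNA was sequenced from trigeminal ganglia dissected from C57Bl6 embryos at stage E13.5, in 5 Prdm12-/- libraries (knockout 16, 29, 42, 49 and 50) and 5 Prdm12+/+ libraries (wild-type 22, 24, 32, 35 and 45). Both groups carry the label Sox10 Venus+, and by that label the reporter is shared by knockout and control. The sample titles name Venus for the wild type only. The labels name no cell sorting and do not say how the reporter or the mutant Prdm12 allele was built. The trigeminal ganglion holds the sensory neurons that serve the face, with their glia, and Prdm12 encodes a zinc finger protein needed for nociceptors to form. The titles of the groups start with different letters, and whatever that letter marks cannot be told apart from genotype. Whether every library stems from a separate embryo is not stated, so the tests below see only the spread among these libraries, part of which may be technical.

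Glutamate is the main transmitter of primary sensory neurons. It is packed into synaptic vesicles by the vesicular glutamate transporters of the SLC17 family, taken back from the extracellular space by the sodium-coupled carriers of the SLC1 family, which are strongest in glia, and returned to neurons as glutamine through SLC38 carriers. GABA and glycine are cleared by sodium- and chloride-coupled carriers of the SLC6 family, several of which are known from glia, meninges and other support cells. The neuronal members are Slc17a6, Slc17a7 and Slc17a8, which encode VGLUT2, VGLUT1 and VGLUT3, Slc1a1, which encodes the glutamate carrier EAAC1, and Slc38a1, which encodes a glutamine carrier. The glial members are Slc1a2 and Slc1a3, which encode GLT-1 and GLAST, Slc6a11, which encodes the GABA transporter GAT3, and Slc6a9, which encodes the glycine transporter GlyT1. This division is background on where these genes are best known. It was not measured in these bulk libraries, in which fewer cells of a type and less RNA per cell cannot be told apart.

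Libraries held 27308327 to 33556002 counts, apart from knockout 49 with 3258008 and knockout 29 with 13603690. Levels are TMM-scaled CPM, counts relative to the scaled library total. A count of 3 corresponds to 0.869 CPM for knockout 49, to 0.236 CPM for knockout 29 and to between 0.0889 and 0.107 CPM elsewhere. Prdm12 averaged 18.2 ± 14.1 CPM in knockout ganglia, against 182 ± 76.7 CPM in wild-type ganglia (SD, n = 5 each; edgeR quasi-likelihood adjusted p = 0.0156), and every knockout library lay below every wild-type library. The tissue's own cell types were present: 12 neuronal and 10 ganglion glia markers were all tested, none was called by edgeR (5 and 2 lower at an unadjusted p under 0.05, 1 and 0 lower with DESeq2), and 11 of the neuronal ones were negative, with a median log2 fold change of -0.30. Of all tested genes, 6.73% were lower at an unadjusted p under 0.05 and 46.3% were positive, and DESeq2 called 1.31% of its tested genes lower. On the leading principal component, wild-type 32 and 35 lay away from the other 8 libraries. They held 707 and 988 CPM of 8 mesenchyme markers together, against 2840 to 10600 CPM in the knockout libraries and 4310 to 6020 CPM in the other wild-type libraries. Knockout 16 held the most central neuron marker RNA, and knockout 29 had 3760 CPM of the glial transcription factor Sox10, against 390 to 844 CPM in the remaining knockout libraries and 573 to 1380 CPM in the wild type. Results that change without these libraries are given with both values.

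The neuronal transporters did not differ between genotypes past the threshold. Slc6a11, the GABA transporter gene among the glial members, was called higher in the knockout, close to the threshold. That call was lost in 9 of the 10 analyses that each left out 1 library. All 9 members passed the filter on low counts and were tested. Of these, 1 was called higher in the knockout and 0 were called lower (edgeR quasi-likelihood test, Benjamini-Hochberg adjusted p under 0.05 over 18005 genes), where 0.0944% of all tested genes were called higher and 0.372% lower. At an unadjusted p under 0.05, 3 members were higher and 0 lower, where 13.1% of all tested genes passed, 6.4% higher and 6.73% lower. DESeq2 called 3 higher (Slc6a11, Slc1a3 and Slc6a9) and 0 lower, against 2.16% of its tested genes higher and 1.31% lower. The 4 glial members had a median log2 fold change of 1.01 and the 5 neuronal members of -0.04, beside -0.03 over all tested genes. Among the glial members, Slc1a2 had a log2 fold change of 0.97 with knockout 16 and of 0.04 without it. It was 0.39 without knockout 16 and wild-type 24 and 45. The glial members summed to 284, 132, 163, 165 and 299 CPM in knockout 16, 29, 42, 49 and 50, against 110, 115, 81.4, 66.7 and 144 CPM in wild-type 22, 24, 32, 35 and 45. Of the 284 CPM in knockout 16, Slc1a2 alone held 134 CPM. The neuronal members summed to 487, 411, 297, 347 and 384 CPM in the same order of knockout libraries, against 377, 311, 524, 532 and 393 CPM in the wild type. Both sums overlapped between genotypes. Knockout 29, with 132 CPM, was the only knockout library whose glial sum lay below the highest wild-type one.

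**Figure D1:**
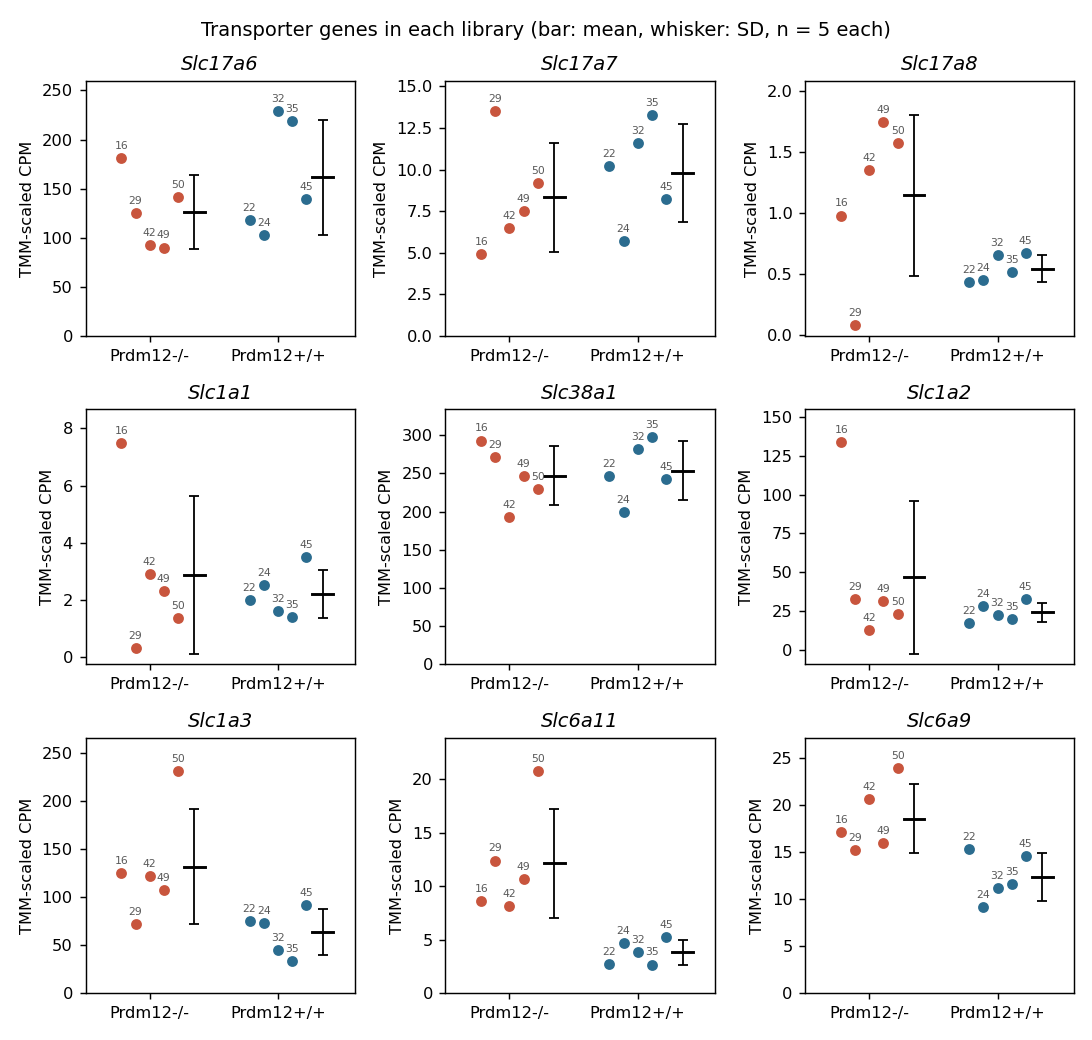
TMM-scaled CPM of each of the 9 transporter genes (y axis, a scale per gene) in the 5 Prdm12-/- and 5 Prdm12+/+ libraries, with library numbers beside the points, the mean as a bar and the SD as a whisker. Slc6a11 is the gene whose knockout libraries, at 8.14 to 20.8 CPM, all lie above the wild-type libraries, at 2.66 to 5.25 CPM, and Slc1a2 stands at 134 CPM in knockout 16 alone.

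Levels between genes were set side by side only after division by the length of each gene's exons. Slc17a6 was the most abundant member per length in both genotypes, at 23.4 ± 6.94 CPM per kilobase in knockout ganglia, against 29.9 ± 10.8 CPM per kilobase in wild-type ganglia (SD, n = 5 each). In the wild type it was followed by Slc38a1 (14.7 ± 2.23 CPM per kilobase) and Slc1a3 (7.41 ± 2.81 CPM per kilobase), and the ranges of these neighbours did not overlap. In the knockout, Slc1a3 (15.4 ± 7.01 CPM per kilobase) and Slc38a1 (14.3 ± 2.24 CPM per kilobase) overlapped each other, and Slc1a3 also overlapped Slc17a6. Slc6a9 and Slc1a2 came next in both genotypes, with overlapping ranges. In the knockout the place of Slc1a2 rested on knockout 16, at 10.2 CPM per kilobase, against 0.972 to 2.5 CPM per kilobase in the remaining 4. Without it Slc1a2 averaged 1.89 CPM per kilobase and Slc6a11 averaged 2.58 CPM per kilobase, which exchanged their places, a calculation added after seeing the data. Slc6a11 stood sixth in the knockout (2.41 ± 1.02 CPM per kilobase), overlapping Slc17a7 below it (1.55 ± 0.609 CPM per kilobase). The order of that pair was reversed in the wild type, where all 5 libraries had more Slc17a7 (1.82 ± 0.548 CPM per kilobase) than Slc6a11 (0.753 ± 0.229 CPM per kilobase). Slc1a1 and Slc17a8 were the lowest members in both genotypes, at 0.349 ± 0.335 and 0.242 ± 0.14 CPM per kilobase in the knockout and 0.268 ± 0.102 and 0.115 ± 0.024 CPM per kilobase in the wild type.

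**Figure D2:**
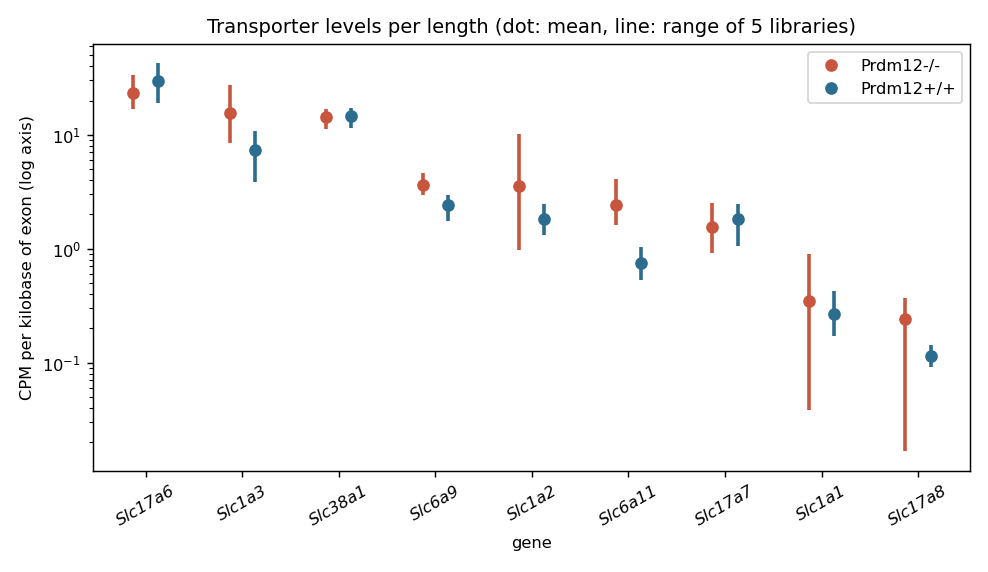
Level per exon length of each member (y axis, CPM per kilobase on a log axis), with the mean as a dot and the range of 5 libraries as a line for Prdm12-/- and Prdm12+/+. Slc17a6 is highest in both genotypes, Slc1a3 averages 15.4 in knockout ganglia, against 7.41 in wild-type ganglia, and Slc17a8 is lowest.

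Slc17a6 (ENSMUSG00000030500), whose product VGLUT2 fills the vesicles of most sensory neurons with glutamate, made up nearly all vesicular glutamate transporter RNA. Its level was 181, 125, 92.9, 90.1 and 142 CPM in knockout 16, 29, 42, 49 and 50, against 118, 103, 229, 219 and 139 CPM in wild-type 22, 24, 32, 35 and 45. The genotypes overlapped, the highest values came from wild-type 32 and 35, and the lowest 2 from knockout 42 and 49. The log2 fold change was -0.35 (SE 0.27, edgeR adjusted p = 0.57), and without wild-type 32 and 35 its sign turned, to 0.13 (SE 0.24, adjusted p = 0.933). Those same libraries held the most neuronal marker RNA of the wild type, 16300 and 17000 CPM over 12 markers, against 9100 to 12000 CPM in the other wild-type libraries and 6840 to 16600 CPM in the knockout. Set against the geometric mean of these neuronal markers in the same library, Slc17a6 was at a ratio of 0.215 ± 0.0453 in knockout ganglia, against 0.204 ± 0.0322 in wild-type ganglia, with overlap. Of 9 nociceptor genes, edgeR called 7 lower and 0 higher, beside 0.372% and 0.0944% of all tested genes. Their median log2 fold change was -2.47, and this fall was already known from these samples.

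Slc17a7, the VGLUT1 gene known from touch and muscle afferents and from forebrain neurons, was far lower. Per exon length it stood at 0.918, 2.51, 1.21, 1.4 and 1.7 CPM per kilobase in knockout 16, 29, 42, 49 and 50, against 1.89, 1.06, 2.15, 2.47 and 1.53 CPM per kilobase in wild-type 22, 24, 32, 35 and 45. Both the lowest and the highest value of all 10 libraries came from the knockout, and the log2 fold change of -0.23 (SE 0.30, edgeR adjusted p = 0.756) turned to 0.11 without wild-type 32 and 35. Per exon length, Slc17a6 made up 92.4 ± 2.63% of the 3 vesicular glutamate transporters in knockout ganglia, against 93.8 ± 1.22% in wild-type ganglia, and the share of Slc17a7 was 6.49 ± 2.59% in knockout ganglia, against 5.85 ± 1.22% in wild-type ganglia. Both shares overlapped between genotypes.

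Slc17a8, the VGLUT3 gene of a small set of low-threshold touch neurons, was close to the limit of detection. Its counts summed to 123 over the knockout libraries and 80 over the wild type. The level was 0.978, 0.0787, 1.35, 1.74 and 1.57 CPM in knockout 16, 29, 42, 49 and 50, against 0.434, 0.448, 0.658, 0.512 and 0.669 CPM in wild-type 22, 24, 32, 35 and 45. The other 4 knockout libraries were above every wild-type library, whereas knockout 29 held 1 count, below its floor of 3 counts. The difference did not pass the test (log2 fold change 1.03, SE 0.51, edgeR adjusted p = 0.41), also not without knockout 29 (log2 fold change 1.36, SE 0.28, adjusted p = 0.0715). Mechanoreceptor and proprioceptor markers summed to 811 to 1190 CPM in knockout ganglia, against 537 to 617 CPM in wild-type ganglia. Ntrk2 and Ntrk3 averaged 360 and 348 CPM in knockout ganglia, against 164 and 158 CPM in wild-type ganglia. Of the 9 markers, 6 had a positive and 3 a negative log2 fold change. By edgeR, Ntrk2 rose, Mafa fell and 7 of 9 did not pass, where 0.0944% of all tested genes were called higher and 0.372% lower. From the nociceptor list, Th, Runx1 and Ret averaged 35.7, 16.3 and 60.6 CPM in knockout ganglia, against 146, 90.1 and 222 CPM in wild-type ganglia. Each was called lower by edgeR, as were 7 of the 9 genes of that list, with 0 called higher. The markers named here were picked after their values were seen. Which sensory neurons carry the Slc17a8 counts was not tested.

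Slc38a1, a glutamine carrier that supplies the precursor of transmitter glutamate, was the member with the least spread. It was at 293, 272, 193, 246 and 230 CPM in knockout 16, 29, 42, 49 and 50, against 247, 199, 282, 298 and 242 CPM in wild-type 22, 24, 32, 35 and 45. The coefficient of variation was 15.6% in knockout ganglia, against 15.1% in wild-type ganglia, and the groups covered nearly the same range. The log2 fold change was -0.04 (SE 0.15, edgeR adjusted p = 0.931), with either sign under other settings, between -0.17 and 0.16. Slc1a1, a glutamate carrier of neurons and epithelia, was at 7.5, 0.315, 2.92, 2.32 and 1.36 CPM in knockout 16, 29, 42, 49 and 50, against 2, 2.53, 1.63, 1.4 and 3.52 CPM in wild-type 22, 24, 32, 35 and 45. The highest and the lowest value both came from the knockout. Its log2 fold change of 0.41 (SE 0.60, edgeR adjusted p = 0.788) turned to -0.38 (adjusted p = 0.769) without knockout 16. Without knockout 16 and wild-type 24 and 45 it was 0.08 (SE 0.59, edgeR adjusted p = 0.956). Knockout 16 held the most central neuron marker RNA, and a connection with Slc1a1 was not tested.

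Slc6a11 (ENSMUSG00000030307) was the called member. GAT3 takes up GABA and beta-alanine and is best known from astrocytes. Its level was 8.65, 12.4, 8.14, 10.7 and 20.8 CPM in knockout 16, 29, 42, 49 and 50, against 2.67, 4.64, 3.81, 2.66 and 5.25 CPM in wild-type 22, 24, 32, 35 and 45. Every knockout library lay above every wild-type library, as 1.29% of all tested genes did, and knockout 50 was highest. The means were 12.1 ± 5.13 CPM in knockout ganglia, against 3.8 ± 1.16 CPM in wild-type ganglia (SD, n = 5 each). On the log2 scale the difference was 1.68 (SE 0.31, edgeR adjusted p = 0.0458). This call lies close to the threshold and was kept in 5 of 17 alternative analyses, with adjusted p-values from 1.96e-05 with DESeq2 to 0.297. It was lost when knockout 29, 42, 49 or 50 or wild-type 22, 24, 32, 35 or 45 was left out, with a log2 fold change that stayed between 1.39 and 1.82 over the 10 analyses that each left out 1 library. Without wild-type 32 and 35 the log2 fold change was 1.59 (SE 0.39, adjusted p = 0.297). Set against the geometric mean of 10 ganglion glia markers in the same library, Slc6a11 was at 0.0763 to 0.185 in knockout ganglia, against 0.0228 to 0.063 in wild-type ganglia, without overlap. That geometric mean itself averaged 106 CPM in knockout ganglia, against 103 CPM in wild-type ganglia. The same ratio overlapped for Slc1a3, at 0.442 to 2.06 in knockout ganglia, against 0.281 to 1.11 in wild-type ganglia. It also overlapped for Slc6a9, at 0.0932 to 0.229 in knockout ganglia, against 0.073 to 0.227 in wild-type ganglia.

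Slc1a3, the gene of the glutamate carrier GLAST found in radial glia, astrocytes and satellite glia, was at 125, 72.1, 122, 107 and 232 CPM in knockout 16, 29, 42, 49 and 50. The wild-type libraries 22, 24, 32, 35 and 45 held 74.6, 73, 44.4, 32.8 and 91.4 CPM. Knockout 29 lay within the wild-type range, the other 4 knockout libraries above it, and wild-type 32 and 35 were lowest. The log2 fold change was 1.06 (SE 0.33), which did not pass the edgeR test (adjusted p = 0.224, unadjusted p = 0.00841) but passed with DESeq2 (adjusted p = 0.0416). Without wild-type 32 and 35 it was 0.78 (SE 0.33, edgeR adjusted p = 0.719), and without knockout 50 it was 0.75 (SE 0.29, adjusted p = 0.409). The ratio of Slc1a3 to Slc17a6 CPM in the same library, not scaled for length, was 0.69, 0.576, 1.31, 1.19 and 1.64 in knockout 16, 29, 42, 49 and 50, against 0.634, 0.707, 0.194, 0.149 and 0.66 in wild-type 22, 24, 32, 35 and 45. The lowest ratios came from wild-type 32 and 35, and the other wild-type libraries overlapped with knockout 16 and 29.

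Slc6a9, the gene of the glycine carrier GlyT1, was at 17.1, 15.2, 20.6, 15.9 and 23.9 CPM in knockout 16, 29, 42, 49 and 50, against 15.3, 9.11, 11.2, 11.6 and 14.6 CPM in wild-type 22, 24, 32, 35 and 45. The groups met at knockout 29 and wild-type 22 and were otherwise apart. The log2 fold change of 0.59 (SE 0.20) did not pass the edgeR test (adjusted p = 0.246, unadjusted p = 0.0109), and DESeq2 called it (adjusted p = 0.0451). Its exons overlap those of Ccdc24 and B4galt2 on the opposite strand in the GENCODE annotation, and the sources used here give no strand setting for the counting.

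To show where transcription of the contrasted genes starts, the RefSeq windows from 250 bases before to 50 bases after the first annotated start are given for the called member, for Slc1a3 and for the main vesicular transporter. Positions are those of the RefSeq table (build GRCm38.p6), sequences run 5′ to 3′ on the gene's strand, and capitals mark each GC box (GGGCGG on either strand), the motif bound by Sp family factors.
Slc6a11, chr6:114130991-114131290, plus strand: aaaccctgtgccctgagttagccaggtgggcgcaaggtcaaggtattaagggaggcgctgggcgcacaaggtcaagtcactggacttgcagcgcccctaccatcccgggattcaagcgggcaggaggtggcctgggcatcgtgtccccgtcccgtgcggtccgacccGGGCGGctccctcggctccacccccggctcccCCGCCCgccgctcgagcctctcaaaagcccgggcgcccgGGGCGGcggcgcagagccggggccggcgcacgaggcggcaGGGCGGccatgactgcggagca
Slc1a3, chr15:8710758-8711057, minus strand: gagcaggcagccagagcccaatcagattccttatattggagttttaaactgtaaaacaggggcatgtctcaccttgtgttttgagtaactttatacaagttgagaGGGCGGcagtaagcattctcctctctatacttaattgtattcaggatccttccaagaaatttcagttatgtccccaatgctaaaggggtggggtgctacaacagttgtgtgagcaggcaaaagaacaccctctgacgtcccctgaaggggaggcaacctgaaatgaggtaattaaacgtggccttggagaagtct
Slc17a6, chr7:51621580-51621879, plus strand: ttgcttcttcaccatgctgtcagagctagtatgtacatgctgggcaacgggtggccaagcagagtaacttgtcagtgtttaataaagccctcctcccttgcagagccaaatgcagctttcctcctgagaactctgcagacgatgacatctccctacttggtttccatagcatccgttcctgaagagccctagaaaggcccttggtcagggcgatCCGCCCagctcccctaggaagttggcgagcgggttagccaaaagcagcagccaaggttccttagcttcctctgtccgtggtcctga
The Slc6a11 window held 4 GC boxes and 32 CpG dinucleotides, with 72.3% G and C. The Slc1a3 window held 1 GC box and 3 CpG dinucleotides (45.3% G and C), and the Slc17a6 window 1 GC box and 8 CpG dinucleotides (53.7% G and C). Over all 32851 RefSeq windows of this length, 35.7% held a GC box and the median was 7 CpG dinucleotides (quartiles 3 and 20). A RUNX motif (TGTGGT on either strand, in 16.8% of all windows) and a SOX motif (ACAAAG on either strand, in 18.7%) had no match in these 3 windows, while the window of a second Slc17a6 start held 1 SOX motif. An E-box (CANNTG, in 72.3% of all windows) occurred 1 time in each of the 3. The letters of a TATA box (TATAAA, in 13.6%) occurred 1 time, in the Slc1a3 window. That match lay on the strand opposite to the printed one, which reads TTTATA there. Such matches describe the letters of the window and were not tied to any difference in RNA. The table held windows for 8 of the 9 members.

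Slc1a2, which encodes GLT-1, the main glutamate carrier of mature astrocytes, was high in a single library. It was at 134, 32.8, 12.8, 31 and 22.7 CPM in knockout 16, 29, 42, 49 and 50, against 17.4, 28.1, 22, 19.6 and 32.7 CPM in wild-type 22, 24, 32, 35 and 45. Knockout 16 was far above the other 9 libraries, which overlapped. The log2 fold change was 0.97 (SE 0.53, edgeR adjusted p = 0.455) with knockout 16 and 0.04 (SE 0.29, adjusted p = 0.966) without it. With wild-type 24 and 45 left out as well as knockout 16, it was 0.39 (SE 0.32, edgeR adjusted p = 0.546). Beside it, the 8 central neuron markers summed to 161 CPM in knockout 16 and to 1.42 to 23.2 CPM in the remaining knockout libraries, against 1.06 to 47 CPM in wild-type ganglia. Pax2 was at 53.6 CPM in knockout 16, at 0.178 to 8.89 CPM in the remaining knockout libraries and at 0 to 13.4 CPM in the wild type. Of the 7 tested markers of that list, 6 had a positive log2 fold change and 1, En1, a negative one (-2.13). En1 was at 0.83 CPM in knockout 16, against 0 to 7.9 CPM in the wild type. Pax2, a factor of inhibitory central neurons, was picked after its values were seen. The part of these cells in the Slc1a2 value was not tested.

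Genes of inhibitory transmission, which sensory neurons are not known to use as their main transmitter, followed the same libraries. They were chosen for mention after their values were seen. Slc32a1, which loads GABA and glycine into vesicles, was at 18.7, 1.18, 0.107, 2.9 and 3.67 CPM in knockout 16, 29, 42, 49 and 50, against 0.467, 4.28, 0.0693, 0 and 3.17 CPM in wild-type 22, 24, 32, 35 and 45. Slc6a5, the neuronal glycine transporter GlyT2, was at 28 CPM in knockout 16 but between 0.142 and 2.61 CPM in its 4 fellow libraries, against 0.0683 to 4.72 CPM in wild-type ganglia. Gad2, which makes GABA from glutamate, was at 42.6 CPM in knockout 16 but between 0.356 and 4.58 CPM in its 4 fellow libraries, against 0.0341 to 6.55 CPM in wild-type ganglia. None of the 3 passed (edgeR adjusted p = 0.557, 0.493 and 0.505). Knockout 16 was highest for each, and wild-type 24 and 45 were the highest of the wild type for each, as they were for the central neuron markers (47 and 24.6 CPM). Wild-type 32 and 35 were at 0.208 CPM or less for these 3 genes.

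**Figure D3:**
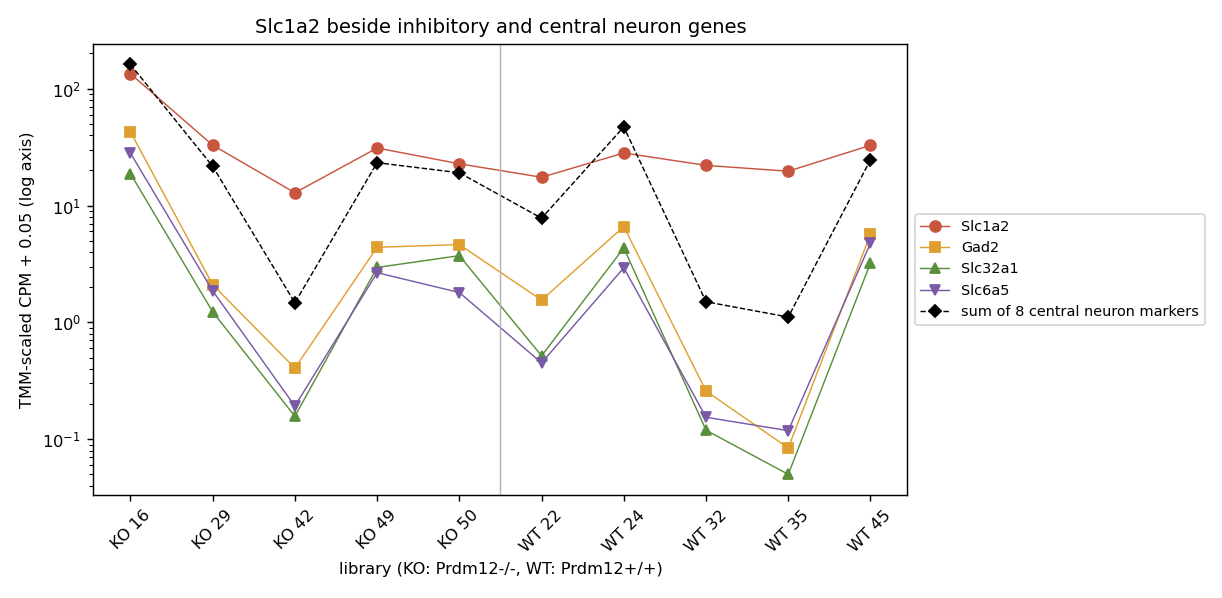
TMM-scaled CPM plus 0.05 (y axis, log) of Slc1a2, Gad2, Slc32a1 and Slc6a5 and the sum of 8 central neuron markers in each library (x axis, Prdm12-/- on the left and Prdm12+/+ on the right). All 5 lines peak in knockout 16, where Slc1a2 is at 134 CPM and the marker sum at 161 CPM.

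The other carriers and enzymes of the same transmitters were described by a list of 38 genes, of which 36 were tested. None was called higher or lower by edgeR, whereas 10 were higher and 1 lower at an unadjusted p under 0.05, beside 6.4% and 6.73% of all tested genes. DESeq2 called 8 higher and 0 lower, beside 2.16% and 1.31% of all genes it tested. Their median log2 fold change was 0.33, 27 were positive and 9 negative, beside 46.3% positive among all tested genes. In 4 of them, Slc6a13, Slc6a20a, Slc38a3 and Slc38a5, every knockout library lay above every wild-type library, and in 0 below, where 1.29% and 2.92% of all tested genes did so.

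**Figure D4:**
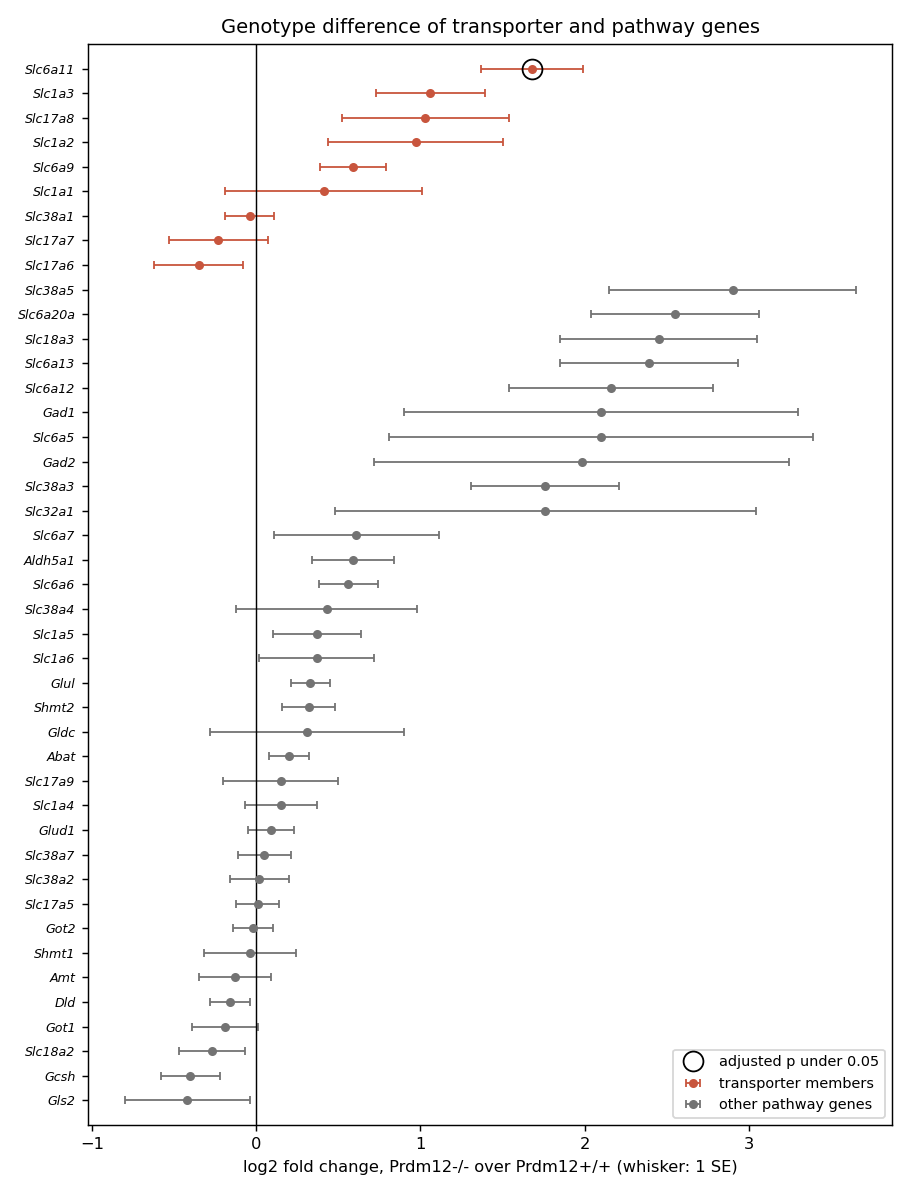
Log2 fold change, Prdm12-/- over Prdm12+/+ (x axis), with 1 SE as whisker, for the 9 transporter members and the tested pathway genes reported here. Black outline marks Slc6a11 (1.68), the gene past the adjusted threshold, and the grey points furthest to the right are Slc38a5 (2.90) and Slc6a20a (2.55).

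Of 7 further tested carriers of GABA, glycine, taurine, proline and betaine, edgeR called 0, with 5 higher and 0 lower at an unadjusted p under 0.05, and DESeq2 called 4 higher. The shares over all tested genes were 6.4% higher and 6.73% lower at an unadjusted p under 0.05, and 2.16% higher with DESeq2. Slc6a13, the gene of the GABA carrier GAT2 of meninges, was at 21.1, 35.2, 70.8, 36.5 and 139 CPM in knockout 16, 29, 42, 49 and 50, against 8.54, 18.7, 7.45, 5.15 and 18.1 CPM in wild-type 22, 24, 32, 35 and 45. The groups did not overlap, but the log2 fold change of 2.39 (SE 0.54) missed the edgeR threshold (adjusted p = 0.0851). Slc6a20a, a proline and imino acid carrier, was at 4, 5.66, 10.2, 6.95 and 21 CPM in the knockout libraries, against 1.3, 2.88, 1.18, 0.717 and 2.15 CPM in the wild type, in the same library order. Its log2 fold change was 2.55 (SE 0.51, edgeR adjusted p = 0.0574), and its near copy Slc6a20b was at 0.0711 to 0.869 CPM in knockout ganglia, against 0.0959 to 0.423 CPM in wild-type ganglia. Knockout 50 was highest and wild-type 35 lowest for Slc6a13 and Slc6a20a. DESeq2 called both (adjusted p = 0.000229 and 2.26e-05), and so it did Slc6a12, the betaine and GABA carrier, picked for mention after its values were seen, which was at 2.93 ± 2.51 CPM in knockout ganglia, against 0.675 ± 0.386 CPM in wild-type ganglia (edgeR adjusted p = 0.179). In the RefSeq annotation Slc6a13 lies beside Slc6a12 on chromosome 6, with no protein-coding gene between. Slc6a6, the taurine carrier, was at 226 ± 42.2 CPM in knockout ganglia, against 153 ± 35.5 CPM in wild-type ganglia (edgeR adjusted p = 0.233).

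All 5 further glutamine carriers had a positive log2 fold change, with a median of 0.43, and edgeR called 0 of them (2 higher at an unadjusted p under 0.05, 2 with DESeq2). Among all tested genes 46.3% were positive, 6.4% were higher at an unadjusted p under 0.05 and 2.16% were called higher by DESeq2. Slc38a3, a carrier of glia and vessels that releases glutamine, was at 34.1, 35.4, 65.9, 49.8 and 130 CPM in knockout 16, 29, 42, 49 and 50, against 23.5, 19, 8.76, 9.87 and 32.3 CPM in wild-type 22, 24, 32, 35 and 45 (log2 fold change 1.76, SE 0.45, edgeR adjusted p = 0.13). Slc38a5, a related carrier known from brain endothelium, was at 8.45, 3.7, 7.01, 7.24 and 43.7 CPM in the knockout libraries, against 1.43, 3.45, 0.693, 0.614 and 3.27 CPM in the wild type (log2 fold change 2.90, SE 0.75, edgeR adjusted p = 0.136). Both were highest in knockout 50 and lowest in wild-type 32 and 35. Without knockout 50 their log2 fold changes were 1.31 and 1.80 (edgeR adjusted p = 0.277 and 0.294). Slc38a2, the broadly expressed relative of Slc38a1, was at 412 ± 76.5 CPM in knockout ganglia, against 408 ± 77.2 CPM in wild-type ganglia, with overlap. The lysosomal Slc38a7 was at 49.9 ± 4.84 CPM in knockout and 48.1 ± 10.4 CPM in wild-type libraries. Among the neutral amino acid carriers of the SLC1 family, Slc1a4 was at 96.9 ± 33.9 CPM in knockout ganglia, against 87.4 ± 16.9 CPM in wild-type ganglia (edgeR adjusted p = 0.782). Slc1a5 was at 21.4 ± 5.8 CPM in knockout and 16.5 ± 5.97 CPM in wild-type libraries (edgeR adjusted p = 0.559).

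The enzymes around these carriers did not pass. Glul, the glutamine synthetase of glia, was at 191 ± 16.2 CPM in knockout ganglia, against 152 ± 17.6 CPM in wild-type ganglia (log2 fold change 0.33, SE 0.12, edgeR adjusted p = 0.278, DESeq2 adjusted p = 0.0417). Abat, which breaks down GABA, was at 114 ± 16.4 CPM in knockout and 98.6 ± 4.45 CPM in wild-type libraries. Aldh5a1, the next enzyme of that route, was at 22.3 ± 7.41 CPM in knockout and 14.7 ± 3.13 CPM in wild-type libraries (edgeR adjusted p = 0.475 and 0.344). Of the glycine enzymes, Shmt2 was at 52.1 ± 9.36 CPM in knockout ganglia, against 41.5 ± 6.8 CPM in wild-type ganglia, and Dld at 113 ± 16.9 CPM in knockout and 126 ± 3.66 CPM in wild-type libraries. For vesicular carriers of other cargo, Slc17a5 stood at 19.8 ± 2.27 CPM in knockout ganglia, against 19.7 ± 1.54 CPM in wild-type ganglia, and the monoamine carrier Slc18a2 at 14.2 ± 3.4 CPM in knockout and 17.2 ± 2.99 CPM in wild-type libraries.

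Markers of other cell types are given beside these carriers. The 8 endothelial markers summed to 424, 753, 978, 585 and 1070 CPM in knockout 16, 29, 42, 49 and 50, against 536, 294, 232, 296 and 519 CPM in wild-type 22, 24, 32, 35 and 45. All 8 had a positive log2 fold change, with a median of 1.02, none was called by edgeR and 4 were called higher by DESeq2, with 7 higher at an unadjusted p under 0.05. Over all tested genes 46.3% were positive, 2.16% were called higher by DESeq2 and 6.4% were higher at an unadjusted p under 0.05. The endothelial sum of knockout 16 lay below those of wild-type 22 and 45. Lists of meningeal and pericyte markers were added after the carriers' values were seen. The 9 meningeal markers summed to 487 to 847 CPM in knockout ganglia, against 163 to 576 CPM in wild-type ganglia, and the 7 pericyte markers to 306 to 510 CPM in knockout ganglia, against 164 to 321 CPM in wild-type ganglia. Both sums were lowest in wild-type 32 and 35, and none of these markers was called by edgeR (2 and 4 higher at an unadjusted p under 0.05, 1 and 3 with DESeq2). Of the 9 meningeal markers, 8 had a positive and 1 a negative log2 fold change, with a median of 1.07. The meningeal transporter Slc22a6, picked from that list after its values were seen, was at 53.5 to 215 CPM in knockout ganglia, against 14.1 to 43.2 CPM in wild-type ganglia. It was the 1 marker of that list without overlap, where 1.29% of all tested genes had every knockout library above every wild-type library. The 10 ganglion glia markers summed to 1740, 5470, 1870, 1670 and 2350 CPM in knockout 16, 29, 42, 49 and 50, against 1600, 2870, 2650, 2880 and 1750 CPM in wild-type 22, 24, 32, 35 and 45, with a median log2 fold change of 0.07. Without wild-type 32 and 35 the log2 fold changes of Slc6a13, Slc6a20a and Slc38a3 were 2.05, 2.23 and 1.40 (edgeR adjusted p = 0.462, 0.352 and 0.517). The 8 central progenitor markers summed to 56.7, 19.8, 5.83, 19.1 and 28.1 CPM in knockout 16, 29, 42, 49 and 50, against 7.94, 10, 1.73, 1.71 and 12.6 CPM in wild-type 22, 24, 32, 35 and 45. Of the 5 that were tested all were positive, with a median log2 fold change of 2.60, and edgeR called 0 (3 higher at an unadjusted p under 0.05, 1 with DESeq2). That 1 was Nkx6-1, a factor of ventral neural tube progenitors picked after its values were seen, at 2.32 to 13 CPM in knockout ganglia, against 0.104 to 1.69 CPM in wild-type ganglia. The 8 macrophage markers summed to 154 to 323 CPM in knockout ganglia, against 44.4 to 261 CPM in wild-type ganglia, all positive, with a median log2 fold change of 0.70 (edgeR 0 called, 1 higher at an unadjusted p under 0.05, DESeq2 0). The part of vessels, meninges, pericytes, central progenitors and macrophages in the differences of Slc6a11, Slc1a3 and these carriers was not tested.

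**Figure D5:**
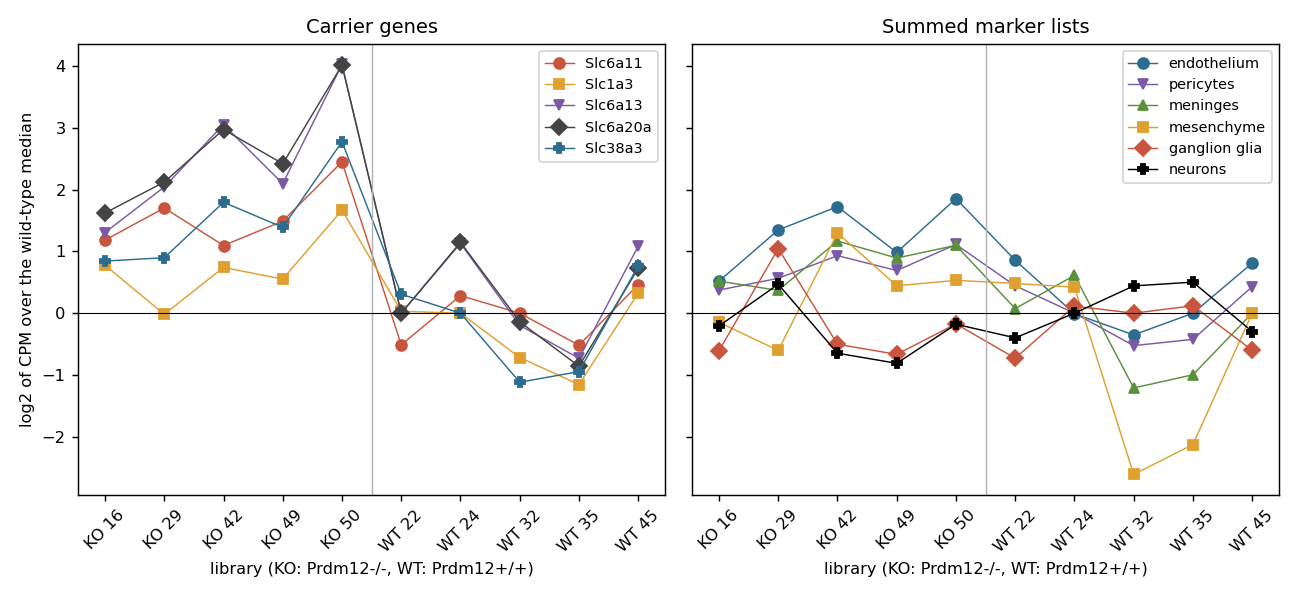
Log2 of the level over the median of the wild-type libraries (y axis) for 5 carrier genes (left) and 6 summed marker lists (right) in each library (x axis, Prdm12-/- left of Prdm12+/+). The carriers are highest in knockout 50, where Slc6a13 is at 139 CPM, as is the endothelial sum (1070 CPM), and mesenchyme markers are lowest in wild-type 32 and 35 (707 and 988 CPM).

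The genes whose pattern over the 10 libraries was nearest to that of a member differed between members. Likeness was the root mean square difference of log2 CPM after centring each gene on its own mean, over 12465 other genes with at least 5 CPM, and is given as a description. For Slc17a6 the nearest were Add2 (0.09), Amer2 (0.09), Map1b (0.10), Cpeb3 (0.12) and Kif5c (0.12), of which Map1b and Kif5c encode a neuronal microtubule protein and a neuronal kinesin. For Slc1a3 they were Plat (0.28), Arhgap20 (0.29), Gprc5b (0.29), Slc22a23 (0.31) and Slco2b1 (0.31), of which Plat encodes tissue plasminogen activator and Slco2b1 an organic anion carrier. The genes near Slc6a11 included Rdh10 (0.37), Adora2a (0.39), Epas1 (0.41) and Gprc5b (0.41), of which Rdh10 makes retinal for retinoic acid synthesis and Epas1 encodes a hypoxia-inducible factor. Nearest to Slc1a2 were Celf4 (0.21), Dusp4 (0.30), Rmst (0.33), Reln (0.35) and Prrt1 (0.37), of which Reln encodes the secreted guide of migrating neurons. The root mean square of each gene's own centred values was 0.46 for Slc17a6, 0.75 for Slc1a3, 0.92 for Slc6a11 and 0.86 for Slc1a2, the scale on which these differences are read. Between members, the nearest pair was Slc17a6 and Slc38a1 (0.32), and Slc1a3 was nearest to Slc6a9 (0.49) and Slc6a11 (0.55).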

How the data were processed

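RNA came from microdissected ganglia, per the labels' protocols. What the authors deposited for each sample is a table of unnormalized counts over 55414 Ensembl genes. Per the submitters' processing notes, featureCounts (1.5.0-p1), STAR (2.7.10a) and bcl2fastq (2.20.0.422) were used. These notes name the builds GRCm39 and mm10 without their roles. The sources used here give no strand setting, annotation release or rule for multi-mapping reads, so reads of overlapping genes or near copies may be counted for either.

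Symbols matched 52081 IDs. A filter on low counts (filterByExpr in edgeR, minimum 10) left 18005 genes, which were scaled with TMM factors and compared with edgeR's quasi-likelihood test, adjusted by Benjamini-Hochberg over all genes kept (threshold 0.05). SE is the absolute log2 fold change divided by the square root of the test's F. Log2 CPM used a prior count of 2, and geometric means of markers added 0.5 CPM. Versions were R 4.3.3, edgeR 4.0.16 and DESeq2 1.42.0. The fit was tested on simulated counts. No libraries repeated each other's counts (chi-square per gene at least 9.88), and no replicate number recurs between groups, so samples were not paired. Exon lengths are union lengths of GENCODE M21 (GRCm38), and promoter windows are from RefSeq (GRCm38.p6). Counting floors cover counting error only.

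The members, gene lists and left-out libraries were chosen with earlier results of these data known. Named were all members, the pathway genes that were called, did not overlap or were the 2 most abundant of their group, and the 5 nearest genes of 4 members. A few of these genes are not reported here. Alternatives were DESeq2, RLE and upper-quartile factors, no filter, each library left out in turn, and 3 sets of libraries left out.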

Additional observations from a re-analysis of the deposited data

Results flagged for a closer look

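Of 18 groups of 5 libraries, a gene and genotype each, 1 held a library far from the others, where chance flags about 1 in 20. Slc1a2 was at 134 CPM in knockout 16, against 12.8 to 32.8 CPM in the remaining knockout libraries, a gap of 0.834 of the group's whole range. That library also held the most central neuron marker RNA (161 CPM), and the connection was not tested.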

How the results depend on the processing

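Over 17 alternatives, 0 members were called lower in each. Of all genes, 17 were called higher and 67 lower. DESeq2 called 388 and 236, no filter 55 and 102, and leaving out each library in turn 2 to 35 and 27 to 88. Without knockout 29 and 49, 6 were higher. Without wild-type 32 and 35, 0 were higher and 19 lower, and without knockout 16 and wild-type 24 and 45, 7 were higher and 26 lower. The 1 member called higher became 3 with DESeq2, 0 to 1 when 1 library was left out, and 0 under each of the 3 sets of left-out libraries. These use fewer samples, and why DESeq2 called more was not tested. Signs turned for Slc17a6 (0.13), Slc17a7 (0.11) and Slc38a1 (0.16) without wild-type 32 and 35, and for Slc1a1 (-0.38) without knockout 16. Slc38a1 was at 0.01 with DESeq2 and with RLE factors. With 1 library left out at a time, log2 fold changes ran from -0.38 to 0.73 for Slc1a1, -0.11 to 0.04 for Slc38a1, -0.05 to 0.06 for Slc17a5, -0.09 to 0.26 for Slc1a4 and -0.07 to 0.15 for Slc38a2. Without knockout 16 and wild-type 24 and 45, Slc38a2 was at -0.02 and Slc38a7 at -0.01. None of these values was called, and the cause was not tested. Other scalings moved the median log2 fold change of all genes to at most 0.02. Knockout 49, at 3258008 counts, limits low genes most. No paired analysis was possible because the groups share no replicate number.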

Other observations

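Slc18a3, the vesicular acetylcholine transporter gene, was chosen after its values were seen. It was at 10.1, 3.86, 2.38, 0.869 and 1.36 CPM in knockout 16, 29, 42, 49 and 50, against 0.367, 1.02, 0.831, 0.717 and 0.563 CPM in wild-type 22, 24, 32, 35 and 45. Only knockout 49, the shallowest library, lay within the wild-type range, and the log2 fold change of 2.45 (SE 0.60) did not pass the edgeR test (adjusted p = 0.111), while DESeq2 called it higher. Slc1a6, the glutamate carrier of Purkinje cells, was at 2.84 ± 1.47 CPM in knockout ganglia, against 2.26 ± 0.453 CPM in wild-type ganglia (SD, n = 5 each, edgeR adjusted p = 0.653). Slc1a7, the retinal glutamate carrier, and Slc6a14 were too low to be tested, with 3 and 2 counts over all knockout libraries, against 10 and 4 over all wild-type libraries.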
